A study of Mus musculus with 17 samples.

Results

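The response described here is that of the Egr1 knockout (KO) mouse uterus 6 h after estradiol (E2), read from 4 of the 17 arrays of the series. The 2 arrays labelled KO and 6 h were compared with the 2 arrays labelled KO and 0 h, over all 14737 genes tested. Both groups carry the KO label, so the contrast compares 6 h after E2 with 0 h within that label. The change between 2 wild-type (WT) arrays at 6 h and 2 at 0 h was used to test where the KO change differed. All 17 arrays, the WT ones included, also entered the estimate of spread, the probe filter and the choice of probe. Total RNA of uterine tissue was hybridised to mouse whole-genome bead arrays. The labels give a genotype and an elapsed time after E2. They do not give the kind of Egr1 allele, the mouse strain, the E2 dose and route, the age of the mice, any ovariectomy, what the 0 h animals received, or whether an array holds 1 animal or a pool. As separate animals are not stated, every p-value here rests on array-to-array spread alone, and that spread may be technical.

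E2 acts in the uterus mainly through estrogen receptor alpha, a nuclear receptor that switches on a first wave of signalling and transcription factor genes within hours and drives fluid uptake, protein synthesis and, later, division of the epithelium. EGR1 is a zinc finger transcription factor made within this first wave, and it binds GC-rich sites near the genes it controls. Later in the response the epithelium secretes antimicrobial and cornified-envelope proteins, and the stroma changes its matrix and its growth factors.

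Each value below is a deposited log2 signal, already normalized between arrays, so a change of 1 is a 2-fold change relative to the rest of the array. Each gene is read from its brightest probe. "Rose" and "fell" mean an adjusted p under 0.05 in limma, a linear model with a spread shared across genes, fitted to all 17 arrays and adjusted over the 14737 genes. Signals correlated at 0.993 between both 0 h arrays, at 0.992 between both 6 h arrays, and at 0.945 to 0.954 between a 0 h and a 6 h array. Egr1 itself was read by 1 probe, whose place relative to the disrupted part is not known here, and its signal was not used to judge the genotype labels. In a whole tissue, fewer cells of a type and less RNA per cell cannot be told apart. Of 92 named genes that changed at least 2-fold and have another probe, 38 have a probe that moved by less than 25% of the value given or the other way. Such probes are given beside only some of the 38, so a gene named without one may still have a probe that disagrees.

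At 6 h 6613 of 14737 genes passed the test in KO uteri, which is 44.9% of all genes. The 3218 that rose are 21.8% and the 3395 that fell are 23.0%. A rise of at least 2-fold was called for 421 genes (2.86%) and such a fall for 549 (3.73%). At 4-fold or more there were 36 rises and 61 falls. The 4 arrays did not overlap between the times for 69.4% of all genes. The median change over all genes was 0.00066, with 5% of genes below -0.88 and 5% above 0.78, so the lower tail reached slightly further than the upper. Centring each array on its median instead gave 3626 higher and 3050 lower, and a cyclic loess between arrays gave 2842 and 3759, so which direction holds more genes depends on the scaling.

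Of the 15 largest rises 5 were of tissue kallikreins, which are secreted proteases. Slc6a13, a transporter for taurine and GABA, rose furthest, from 9.13 and 8.66 at 0 h to 12.07 and 12.02 at 6 h, a change of 3.15 ± 0.16 (SE; adjusted p = 1.82e-08). Klk1, a tissue kallikrein protease, went from 9.58 and 9.48 to 12.65 and 12.52 (3.06 ± 0.16, adjusted p = 2.28e-08). Adamts4, a protease that cuts the proteoglycans aggrecan and versican, went from 9.07 and 8.60 to 11.51 and 11.86 (2.85 ± 0.16, adjusted p = 3.72e-08). In each of these genes both 6 h arrays lay more than 2 log2 units above both 0 h arrays. Mthfd2, a mitochondrial folate enzyme, rose by 3.07 ± 0.37 (adjusted p = 1.08e-05), from 10.12 and 9.50 to 12.30 and 13.45, and its 6 h arrays were more than 1 unit apart. Lcn2, a secreted protein that captures bacterial iron carriers, rose from 10.72 and 11.63 to 13.51 and 13.99. Sprr2g, a small proline-rich protein of cornified surfaces, rose from 9.54 and 10.06 to 12.35 on both arrays. Padi1, which converts arginine to citrulline in proteins, started high at 12.20 and 12.72 and reached 14.66 and 15.25. Sox9, a transcription factor of glands and progenitors, rose by 2.47, and Mad2l1, a spindle checkpoint protein, by 2.59. The set was completed by Phf21b (2.79), Tmem200a (2.77) and 4 more kallikreins.

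The tissue kallikreins are a cluster of similar proteases, and 9 of 15 measured members rose while 2 fell. Klk1b5 rose by 3.08, Klk1b26 by 2.96, Klk1b21 by 2.75, Klk1b27 by 2.75 and Klk1b24 by 1.96, all without overlap between the times. Klk8 (-1.28) and Klk11 (-0.53), which sit outside the Klk1b group, fell. These copies are close in sequence, and which of them each probe reads was not tested. Other probes of Klk1b5 moved by 0.10 and 0.19 and another probe of Klk1b26 by -0.01, whereas a further probe of Klk1b27 rose by 2.17.

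Among the 15 largest falls Dbp, a transcription factor that carries clock timing to other genes, went from 13.89 and 13.84 to 10.53 and 10.62, a change of -3.29 ± 0.22 (adjusted p = 9.99e-08). Sesn1, a sestrin that holds back the growth kinase mTORC1, went from 12.55 on both arrays to 9.72 and 9.68 (-2.85 ± 0.12, adjusted p = 5.06e-09), and its other probes moved by -2.70 and -0.48. Klhl24, a cullin adaptor, fell from 12.46 and 12.42 to 8.94 and 9.57. In these genes the arrays of each time stayed within 1 unit of each other and far from the other time. Ypel3, linked to growth arrest, changed by -3.09 from 14.36 and 14.24, although another probe of it moved by -0.16. Tsc22d3, a glucocorticoid-induced leucine zipper protein, changed by -2.76, with other probes between -1.23 and -0.14, and Fam214a by -3.03. The change was -3.01 for Galnt15, which starts O-linked sugar chains and has other probes between -2.67 and -0.29, and -2.77 for Nrep. It was -2.73 for Bdh2, a hydroxybutyrate dehydrogenase, -2.68 for Acpp, an acid phosphatase (another probe -0.15), and -2.62 for Aox3, an aldehyde oxidase.

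The remaining 4 of these 15 falls were the most uneven between the 6 h arrays. Less uneven at 6 h were Galnt15 (9.16 and 10.49), Fam214a (9.25 and 10.28) and Ypel3 (10.71 and 11.70). Cyp2e1, a cytochrome P450, read 13.69 and 13.90 at 0 h against 9.06 and 12.20 at 6 h. Adipoq, the fat cell hormone adiponectin, read 13.16 and 13.26 against 9.03 and 11.47. Car3, a carbonic anhydrase abundant in fat, read 12.04 and 12.27 against 8.25 and 10.58, and Cdo1, a cysteine dioxygenase, 12.54 and 12.72 against 8.94 and 11.09. In all of them the second 6 h array lay between the first and the 0 h arrays. Without the first 6 h array the falls of Cyp2e1 (-1.60) and Adipoq (-1.74) did not pass the test.

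**Figure D1:**
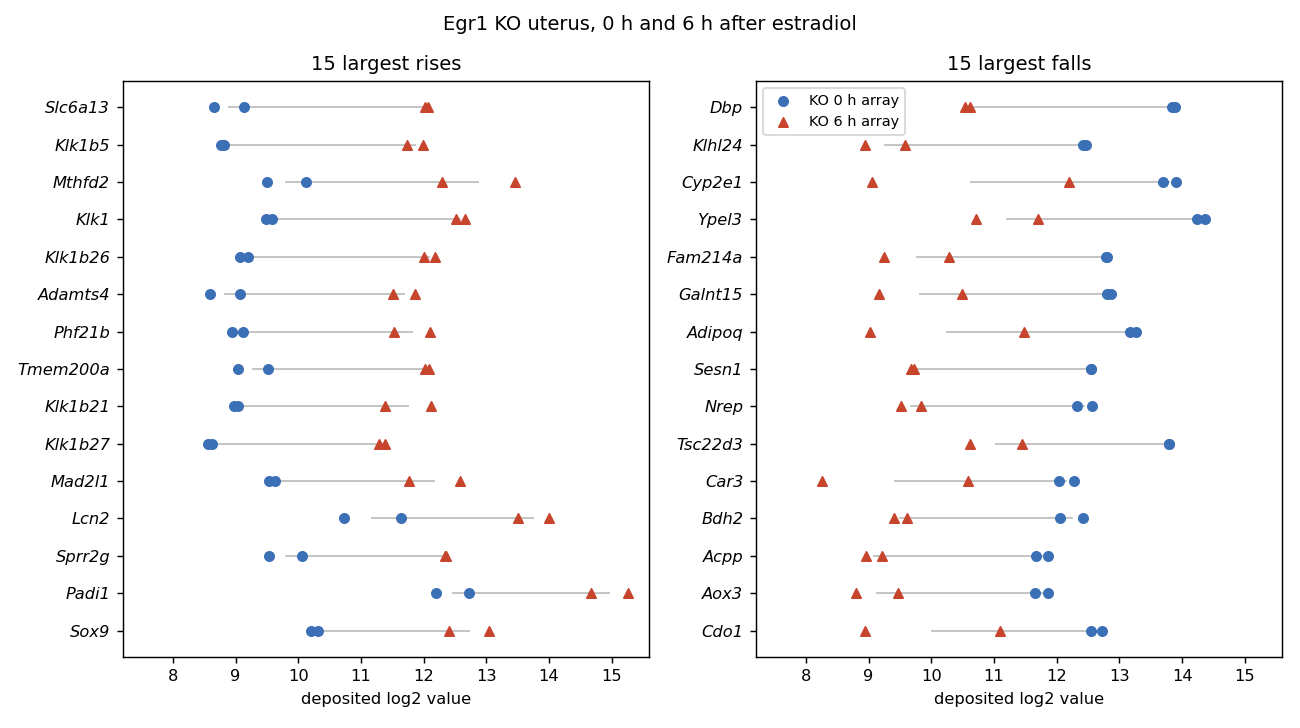
Deposited log2 values of the 15 genes with the largest rise (left) and the 15 with the largest fall (right); circles are the 2 KO 0 h arrays, triangles the 2 KO 6 h arrays, and the grey line joins the group means. The groups do not overlap for any of the 30 genes, which the rule required, and the 6 h arrays of Cyp2e1, Adipoq, Car3 and Cdo1 lie more than 2 units apart.

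The 44 pathway lists divided into a block that rose, a block that fell and a middle whose medians lay near 0. Ribosome assembly, transfer RNA charging, translation factors, amino acid supply, protein folding and export, the proteasome, nucleotides, cholesterol and early estrogen-response genes were the lists with the most rises. Growth-restraint genes, insulin-like growth factor signalling, the clock and conjugating enzymes were those with the most falls. DNA replication and mitosis genes hardly moved. Each count is to be read against the 21.8% of all genes that rose and the 23.0% that fell. The lists were chosen with earlier results of these data known, so that reading is a description and not a test.

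**Figure D2:**
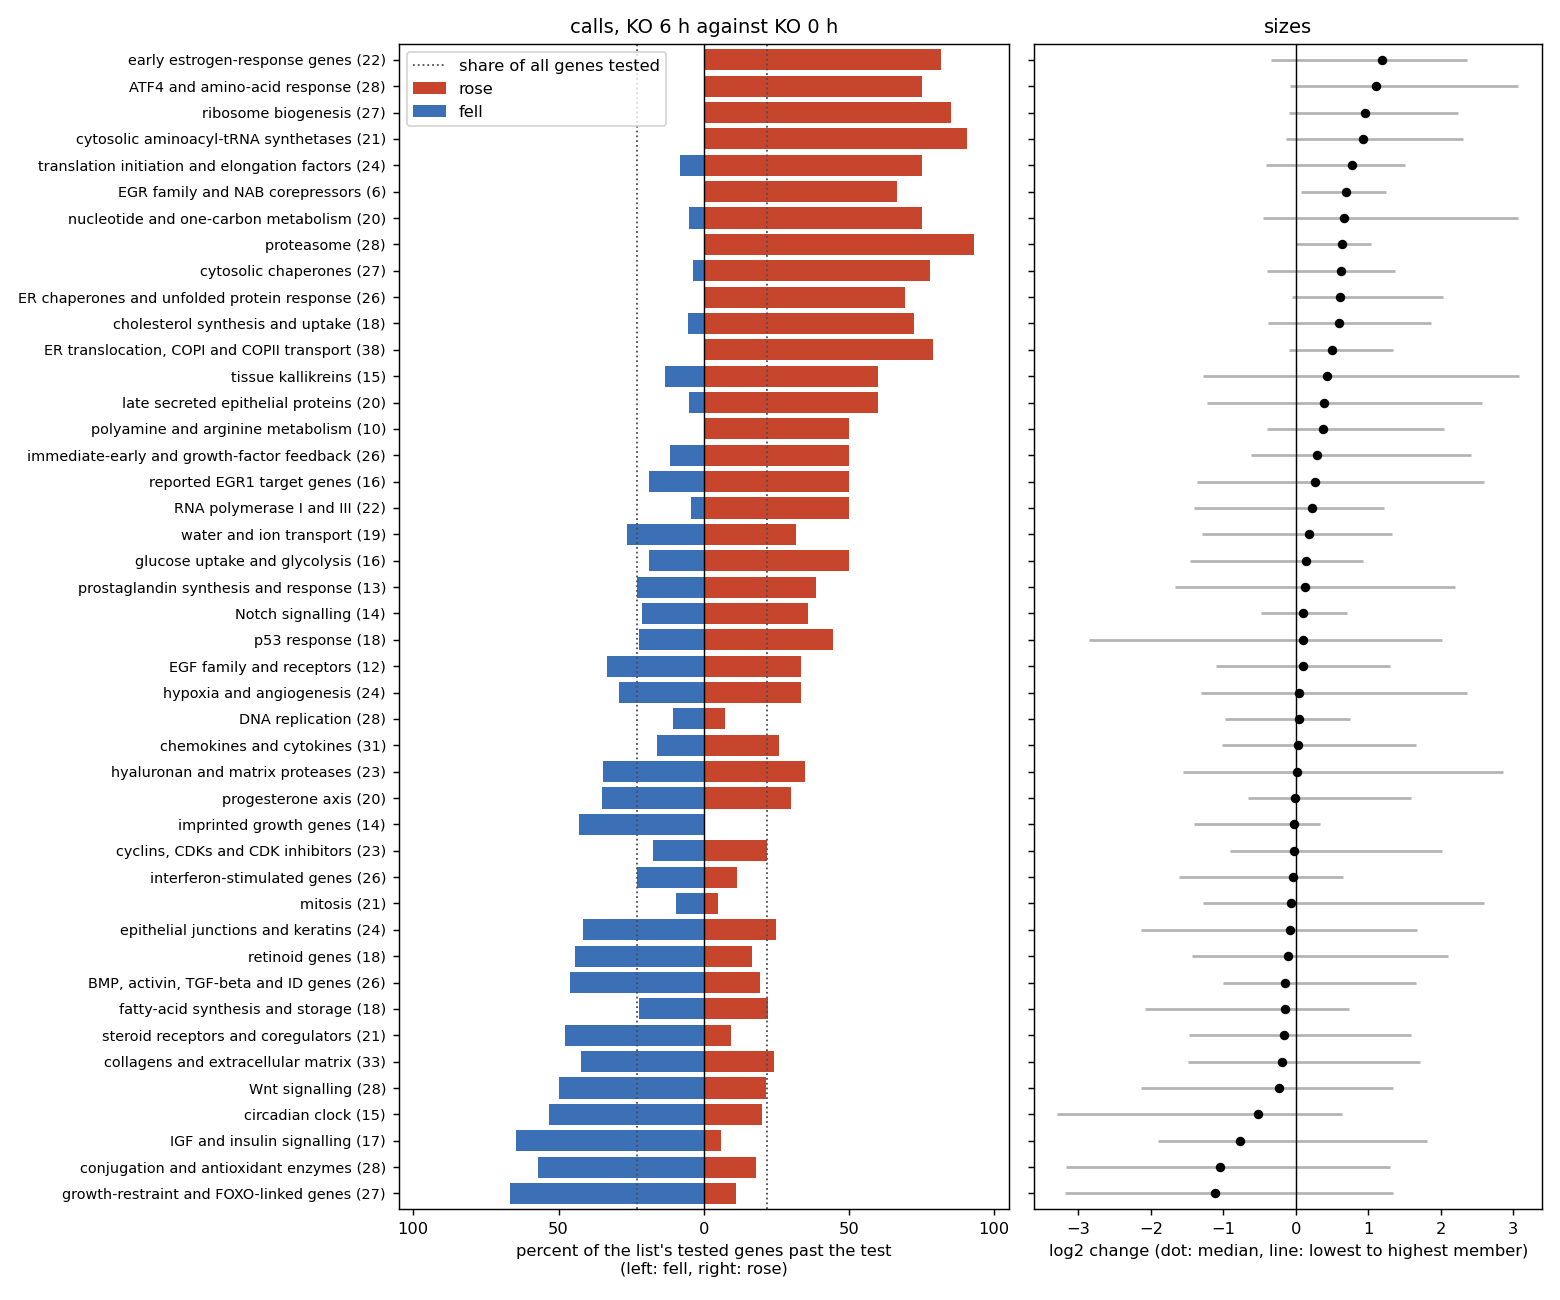
Left: percent of each list's tested genes (number in brackets) that rose (red, to the right) or fell (blue, to the left) in KO 6 h against KO 0 h arrays; dotted lines mark the shares over all 14737 genes. Right: median log2 change of the list (dot) with its lowest and highest member (line). Proteasome genes rose in 26 of 28 cases within a narrow range, and growth-restraint genes fell in 18 of 27.

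Of 22 measured genes listed as early estrogen-response genes, 18 rose and 0 fell, with a median of 1.18. The progesterone receptor gene Pgr went from 9.23 and 9.11 to 10.83 and 10.70 (1.59 ± 0.14, adjusted p = 6.96e-07). Greb1, a cofactor of the estrogen receptor, went from 9.86 and 9.55 to 11.61 and 12.17 (2.19 ± 0.15, adjusted p = 1.06e-07). Ramp3, which shapes the receptor for the vessel peptide adrenomedullin, went from 9.47 and 9.39 to 12.04 and 11.54 (2.36 ± 0.22). All 3 rose without overlap. Cdkn1a, an inhibitor of cyclin-dependent kinases, rose by 2.01, Gadd45g by 1.83 and Errfi1, an inhibitor of the EGF receptor, by 1.29. Fst (0.12), Tgfa (0.07), Slc2a1 (-0.07) and Ramp2 (-0.35) did not pass the test. Among the receptors, Esr1, which encodes estrogen receptor alpha, read 10.85 and 10.54 against 10.37 and 10.12. Its change of -0.45 lay at the edge of the test (adjusted p = 4.97e-02). The fall did not pass without the first 0 h array (-0.30) or the second 6 h array (-0.33). With the mean of all its probes the change was only -0.07 and did not pass. Nor did the fall pass without the filter on dim probes (-0.45) or with each array centred on its median (-0.41). Esr2 stayed at the level of dim probes (0.04). Of 21 steroid receptors and coregulators 2 rose and 10 fell, among them the coregulator gene Cited2 (-1.47), of which another probe moved by -0.13.

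Of 6 EGR family and corepressor genes 4 rose and 0 fell in the arrays labelled KO. Egr1 itself read 13.48 and 13.63 at 0 h and 14.74 and 14.55 at 6 h (1.09 ± 0.18, adjusted p = 1.91e-04). Egr3 went from 8.81 and 8.79 to 10.19 and 9.88 (1.24 ± 0.16), although its other probe moved by 0.04. Egr2 went from 8.72 and 8.91 to 10.21 and 9.38 (0.98 ± 0.19, adjusted p = 7.36e-04). The groups did not overlap in any of them, and the first 6 h array was the higher in all. Nab2, a corepressor that EGR proteins induce, rose by 0.40, but by 0.21 and without passing the test when the first 6 h array was left out. Nab1 (0.12) and Egr4 (0.07) did not pass. Among 16 genes reported elsewhere as EGR1 targets 8 rose and 3 fell. Ptges, the prostaglandin E synthase, rose by 2.19, the adhesion gene Icam1 by 1.46 and the vessel growth factor Vegfa by 1.45, while Igf2 fell by 1.36.

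Immediate-early genes were still raised at 6 h in 13 of 26 cases, with 3 falls and a median of 0.30. Fos, a part of the AP-1 transcription factor, went from 9.20 and 9.33 to 11.40 and 11.98 (2.42 ± 0.21, adjusted p = 6.12e-07). Socs3, which shuts off cytokine receptors, went from 9.92 and 9.79 to 11.82 and 12.66 (2.38 ± 0.19). The second 6 h array was the higher one in both. Side by side, the changes at 3 h against the same 0 h arrays were 3.19 for Fos and 3.69 for Socs3. Ier3 rose by 1.58 and Klf4 by 1.39, whereas Jun (-0.06) and Myc (0.05) did not pass the test.

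Of 27 ribosome biogenesis genes 23 rose and 0 fell. They had a median change of 0.96, and 13 of them rose at least 2-fold. Rrp12, needed to export and mature ribosomal subunits, went from 10.20 and 10.04 to 12.38 and 12.34 (2.24 ± 0.14, adjusted p = 4.99e-08). Nop58 and Nop56, core proteins of the box C/D particles that methylate ribosomal RNA, rose by 1.75 and 1.66, and the helicase Ddx21 by 1.53. The abundant nucleolar protein Npm1, at 14.22 and 14.25, moved by 0.22 and did not pass. Of 22 genes of RNA polymerases I and III 11 rose, led by Polr1e (1.22). Maf1, the repressor of polymerase III, was the only one of them that fell, from 13.56 and 13.53 to 12.07 and 12.21 (-1.40 ± 0.15).

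Translation factors rose in 18 of 24 cases and fell in 2. Eif5a, the factor that carries hypusine, rose by 1.40, Eif2s2 by 1.30 and Eef1e1, a partner of the transfer RNA synthetase complex, by 1.50. The 2 that fell were the elongation factors Eef2 (-0.41) and Eef1b2 (-0.28). Cytosolic transfer RNA synthetases, which load amino acids onto transfer RNA, rose in 19 of 21 cases and 10 of them at least 2-fold. Aars, for alanine, went from 10.71 and 10.63 to 12.80 and 13.15 (2.31 ± 0.17, adjusted p = 2.23e-07), and Nars, for asparagine, from 10.35 and 10.38 to 11.84 and 12.27 (1.69 ± 0.12). Another probe of Aars rose by only 0.30. Aimp1 (0.17) and Qars (-0.14) were the members that did not pass.

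Genes of the ATF4 program, which supplies amino acids and one-carbon units when the factor ATF4 is made, numbered 28, of which 21 rose and 0 fell. Their median was 1.11, and 16 rose at least 2-fold. Atf4 itself went from 12.08 and 11.87 to 12.97 and 13.10 (1.06 ± 0.08, adjusted p = 2.34e-07). Asns, which makes asparagine, went from a mean of 11.23 ± 0.33 (SD, n = 2) to 13.27 and 13.67 (2.24 ± 0.21, adjusted p = 1.30e-06), and Psat1, of serine synthesis, from 10.89 and 10.86 to 12.53 and 13.13 (1.96 ± 0.25). Within a time the arrays of these genes lay less than 1 unit apart. Chac1, which degrades glutathione, differed: it read 9.22 and 9.40 at 0 h and 10.06 and 12.71 at 6 h. Its change of 2.07 ± 0.62 (adjusted p = 1.27e-02) fell to 0.75 and did not pass without the second 6 h array. Trib3, a pseudokinase, read 9.41 and 9.37 against 9.90 and 11.39, and its other probes moved by 0.26 and 0.43. Its change of 1.25 did not pass in a fit of only the 4 KO arrays, and it fell to 0.51 without the second 6 h array. Over the whole list the count was 18 and the median 0.72 without it. Set beside the 3 h changes against the same 0 h arrays, Chac1 stood at 3.75 at 3 h and 2.07 at 6 h, whereas Asns stood at 0.50 and 2.24 and Psat1 at 0.38 and 1.96.

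Because the ATF4 list, the synthetases, the ribosome biogenesis list and the growth-restraint list each moved largely 1 way, their promoters were read for short letter strings. The RefSeq promoter table of build GRCm38.p6 gave 300 bases per gene, 250 before and 50 after the start, for 11820 of the 14737 genes tested. Of these genes 2248 have more than 1 promoter there, and only the first listed was read. The strings were searched on both strands, and a match is a description of letters, not of binding. TGATGNAA, the C/EBP-ATF element, occurred in 2.68% of all promoters, in 6 of 24 on the ATF4 list (25%) and in 5 of 14 synthetase promoters (35.7%). It occurred in 3.99% of the genes that rose at least 2-fold and in 2.15% of those that fell as far. The ATF4 list was made of genes already linked to that factor, so its share describes the list and not this response. In Trib3, Slc1a4, Iars and Yars the match to TGATGNAA did not lie wholly before the start. The windows below show this element in capitals, on either strand, in 3 of the ATF4 list genes that rose and 3 of the synthetases. They run 5′ to 3′ on the gene's strand, end no later than the start site, and were chosen after the changes were seen.
Chac1, chr2:119351019-119351086, plus strand: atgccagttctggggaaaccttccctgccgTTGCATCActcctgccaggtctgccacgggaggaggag
Asns, chr6:7693210-7693262, minus strand: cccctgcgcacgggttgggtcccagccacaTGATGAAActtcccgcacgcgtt
Slc7a11, chr3:50443623-50443690, minus strand: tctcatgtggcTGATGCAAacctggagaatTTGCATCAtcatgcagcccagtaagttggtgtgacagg
Aars, chr8:111033700-111033767, plus strand: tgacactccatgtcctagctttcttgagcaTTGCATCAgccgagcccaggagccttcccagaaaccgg
Gars, chr6:55037941-55038000, plus strand: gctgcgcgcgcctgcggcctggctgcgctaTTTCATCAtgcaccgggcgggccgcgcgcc
Tars, chr15:11399659-11399703, minus strand: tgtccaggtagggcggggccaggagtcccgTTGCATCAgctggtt
Slc7a11 is the only one of these with a match on each strand in its window. The change was 1.27 for Gars and 0.84 for Tars, and Nupr1, which also holds a match, moved by 0.25 without passing the test.

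CACGTG, the E-box, occurred in 9.31% of all promoters, in 14.5% of the 351 promoters of genes that rose at least 2-fold and in 9.07% of the 419 that fell. It was found in 6 of 23 ribosome biogenesis promoters (26.1%), among them Nop2, a ribosomal RNA methyltransferase that rose by 1.45. Only in Nop2 did the string lie wholly before the start, and Utp20, another of the 6, did not pass the test (-0.10). Lists that fell held it about as often, with 5 of 22 growth-restraint promoters (22.7%), 4 of 16 of insulin-like growth factor signalling (25%) and 3 of 13 of the clock (23.1%). GTAAACA, a forkhead factor site, showed the other order: 2.69% of all promoters, 1.14% of those that rose at least 2-fold and 5.73% of those that fell. On the growth-restraint list 4 of 22 promoters (18.2%) held it, and all 4 genes fell: Sesn1, Ypel3, Txnip and Btg1. In Sesn1 and Ypel3 the match did not lie wholly before the start. The string GCGNGGGCG, an EGR site, stood in 9.37% of all promoters, in 9.69% of those of genes that rose at least 2-fold and in 8.35% of those that fell. By list it stood in 9 of 21 immediate-early promoters (42.9%), 7 of 17 Wnt (41.2%), 4 of 11 Notch (36.4%) and 3 of 13 of reported EGR1 targets (23.1%). The immediate-early, Wnt and Notch shares were the highest of the 44 lists, and hypoxia genes (4 of 17, 23.5%) matched the reported targets. It stood in 0 of 18 early estrogen-response, 0 of 23 ribosome biogenesis and 0 of 14 synthetase promoters. None of these strings contains another of them. Windows for 1 E-box and 2 forkhead strings, in capitals, are given in the same form.
Nop2, chr6:125131793-125131858, plus strand: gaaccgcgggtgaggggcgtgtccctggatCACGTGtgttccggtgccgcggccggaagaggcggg
Txnip, chr3:96557806-96557872, plus strand: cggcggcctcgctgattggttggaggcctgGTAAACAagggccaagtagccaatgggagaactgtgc
Btg1, chr10:96616767-96616833, plus strand: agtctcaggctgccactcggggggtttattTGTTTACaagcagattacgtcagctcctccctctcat
Of the strings searched besides these, the AP-1 site TGANTCA stood in 6.28% of all promoters, the cyclic AMP element TGACGTCA in 2.79% and the sterol element TCACNCCAC in 1.10%. Among genes that rose at least 2-fold their shares were 5.98%, 3.7% and 0.855%, and among those that fell as far 5.01%, 0.955% and 0.955%. The sterol element stood in 0 of 15 cholesterol promoters, although that list mostly rose.

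**Figure D3:**
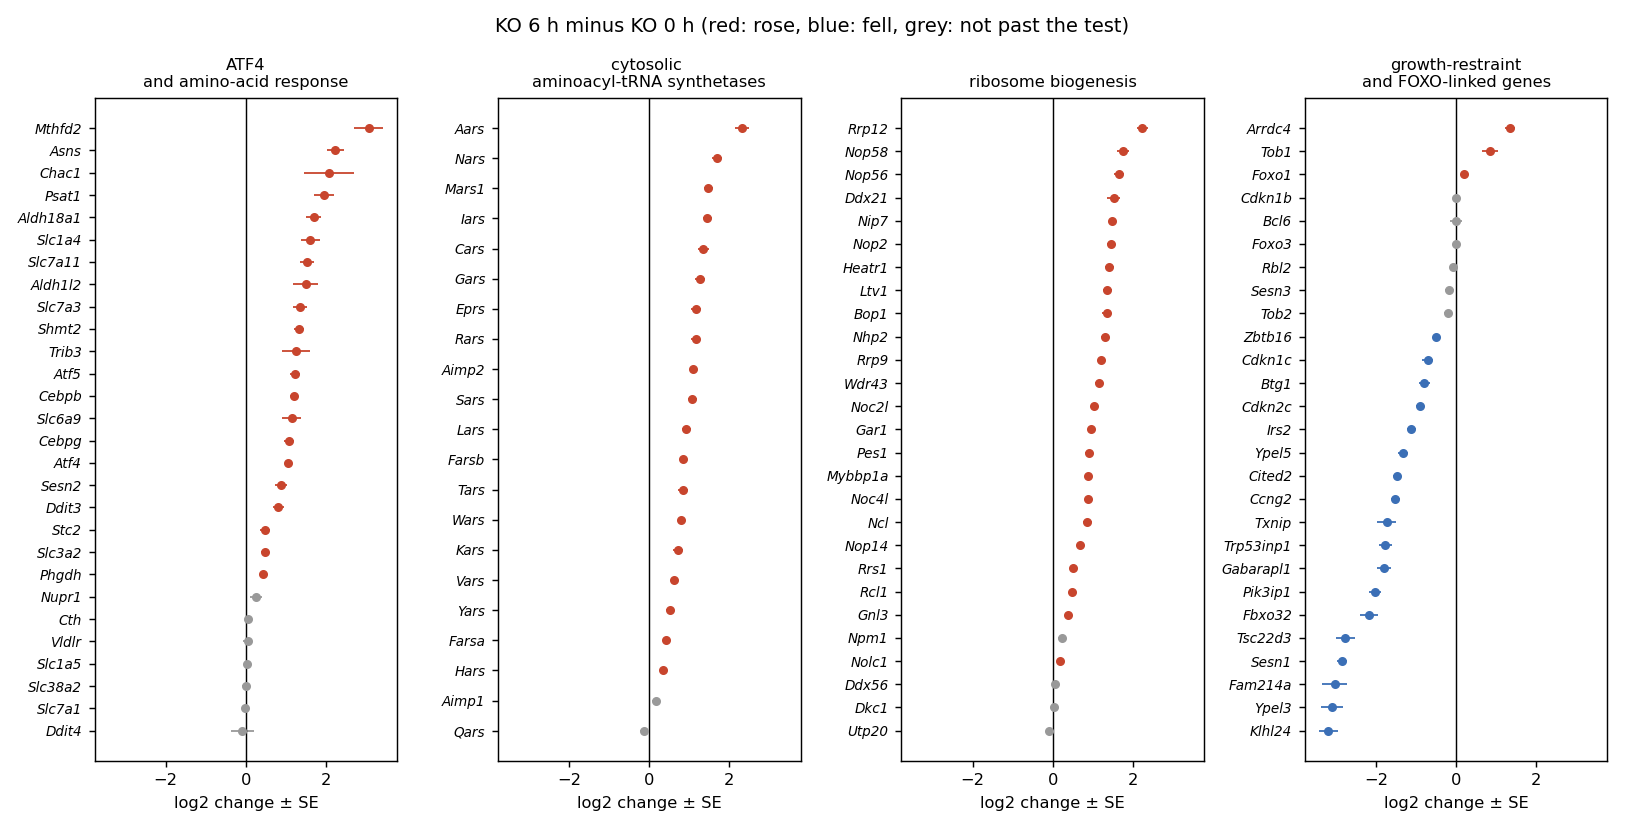
Log2 change from KO 0 h to KO 6 h (dot) with its standard error (bar) for every tested member of 4 lists. In the ribosome biogenesis, synthetase and ATF4 panels 0 genes fell and the highest is Mthfd2 at 3.07, while the growth-restraint genes reach -3.19 for Klhl24, with Arrdc4 the highest of them at 1.34.

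Growth-restraint genes linked to the FOXO factors, which growth factor signalling normally holds in check, fell in 18 of 27 cases and rose in 3, with a median of -1.11. Txnip, which lowers glucose uptake, went from 15.14 on both arrays to 13.07 and 13.75 (-1.73 ± 0.23, adjusted p = 2.77e-05). Ccng2, an atypical cyclin of resting cells, went from 10.07 and 9.95 to 8.30 and 8.68 (-1.52 ± 0.12). Fbxo32, a ubiquitin ligase of wasting muscle, changed by -2.17 and Pik3ip1, an inhibitor of PI3 kinase, by -2.02. The falls spread over proteins of very different kinds, and 14 of them were at least 2-fold. The FOXO genes moved little: Foxo1 by 0.19 and Foxo3 by -0.01, the second not past the test, and the small rise of Foxo1 was lost without either 0 h array or without the first 6 h array (0.13 to 0.21). Arrdc4, a relative of Txnip in the same glucose circuit, rose by 1.34, against the direction of Txnip.

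The circadian clock list fell in 8 of 15 cases and rose in 3. Besides Dbp, its relative Tef fell by 1.82 (another probe moved by -0.06) and the repressor Nr1d2 from 11.35 and 11.22 to 9.38 and 9.83 (-1.69 ± 0.14). Per1 fell by 1.35, Per3 by 1.24 and Nr1d1 by 1.05. Arntl (0.64) and Clock (0.54), which encode the activating pair, rose along with Bhlhe40 (0.52). The clock hour at which the tissue of each group was taken is not in the labels, so time after E2 and time of day cannot be told apart here. Per2 fell by 0.52, and by 0.30 without passing when the first 6 h array was left out.

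Genes of the secretory route rose in smaller steps but widely. Endoplasmic reticulum chaperones and unfolded protein response genes gave 18 rises and 0 falls among 26, with a median of 0.60. Creld2 went from 10.54 and 10.77 to 12.84 and 12.53 (2.03 ± 0.31), Dnajc3 rose by 1.63 and the calcium-binding chaperone Calr by 1.54 (another probe 0.16). Hspa5, the master chaperone of the compartment, went from 8.64 and 8.62 to 9.77 and 9.45 (0.98 ± 0.20). The sensors of the response did not move alike: Ern1 rose by 0.25, while Atf6 (0.06) and Eif2ak3 (-0.06) did not pass. Of 38 genes of protein entry and vesicle coats 30 rose and 0 fell, with Sec61a1, the entry channel, and Srprb, a receptor subunit for the signal particle, both at 1.34. Cytosolic chaperones rose in 21 of 27 cases, led by Stip1 and Hsph1 (1.37 each), and Hspb1 (-0.40) was the single fall. The proteasome rose in 26 of 28 cases, between 0.23 and 1.04, with Psmc5 in front and only Psma6 (0.01) and Psmc6 (0.05) not past the test.

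Building-block metabolism rose with it. Of 20 nucleotide and one-carbon genes 15 rose and 1 fell. Among the rises were Nme1 (1.60), Ctps (1.36), Uck2 (1.34) and Shmt2 (1.33). In the polyamine list 5 of 10 rose and 0 fell. Srm, which makes the polyamine spermidine, went from 10.07 and 10.10 to 12.21 and 12.05 (2.05 ± 0.19, adjusted p = 1.22e-06), and Odc1, the first enzyme of that route, rose by 1.20. Of 18 cholesterol synthesis genes 13 rose and 1 fell. Sqle went from 10.50 and 10.61 to 12.65 and 12.18 (1.87 ± 0.22), and Cyp51 (1.75), Msmo1 (1.72) and Hsd17b7 (1.75, other probe 0.08) followed. The sterol regulator Srebf2 rose by 0.92 and the fatty acid regulator Srebf1 by 0.15, the latter lost in several fits. In fatty acid synthesis 4 genes rose and 4 fell of 18, with 2 rises when either 0 h array or the first 6 h array was left out, and the change of Fasn was 0.00, not past the test. Scd1, a desaturase abundant in fat, read 14.63 and 14.42 against 11.04 and 13.84 and did not pass (-2.08, adjusted p = 5.28e-02). In glycolysis 8 of 16 rose and 3 fell, or 4 rose without the first 0 h array. Gapdh rose by 0.93 while Pfkm fell by 1.47, although another probe of Pfkm moved by -0.19.

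Of 13 prostaglandin genes 5 rose and 3 fell. Ptges, which makes prostaglandin E2, went from 8.88 and 8.82 to 10.62 and 11.46 (2.19 ± 0.20, adjusted p = 8.69e-07). Hpgd, which inactivates prostaglandins, went from 10.51 and 10.53 to 8.97 and 8.81 (-1.62 ± 0.09, adjusted p = 3.50e-08). Hpgds, which makes prostaglandin D2, went from 10.37 and 10.58 to 8.86 and 8.76 (-1.67 ± 0.13). In none did the times overlap. Slco2a1, the prostaglandin transporter, rose by 1.94, with other probes between 0.29 and 1.60, and Ptgs2 lay near the array median at every array (8.13 to 8.22) with a change of 0.00. Of 19 water and ion transport genes 6 rose and 5 fell. Aqp5 rose from 8.63 and 8.62 to 9.86 and 9.96, the chloride channel Cftr by 0.77 and the sodium channel subunit Scnn1b by 1.32, whereas the capillary water channel Aqp1 fell by 0.84. The falls of Clca1 (-1.30) and Fxyd4 (-1.05) did not pass without the first 6 h array (-1.04 and -0.40), and Fxyd4 not without the first 0 h array either (-0.98). Of this list 2 genes fell without the first 0 h array, 3 without the second and 2 without the first 6 h array.

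Late secreted epithelial proteins rose in 12 of 20 cases and fell in 1, and these counts depended on the first 0 h array. Their mean signal was 9.69 and 10.09 at 0 h and 10.52 and 10.55 at 6 h, so the second 0 h array lay nearer the 6 h arrays. Sprr2f read 10.16 and 11.87 at 0 h and 12.82 and 12.69 at 6 h (1.74 ± 0.50, adjusted p = 1.05e-02), and its change was 0.89 and did not pass without the first 0 h array. Lactoferrin, Ltf, was already high at 12.35 and 12.61 and moved by 0.38 without passing. Padi2 rose by 1.57 and Muc1, a surface mucin, by 0.97. Among junction and keratin genes 6 of 24 rose and 10 fell. Krt7 rose from 9.83 and 10.01 to 11.44 and 11.74 (1.67 ± 0.14), and the epithelial factor Elf3 by 1.44. The claudins, which seal tight junctions, went both ways: Cldn7 rose by 0.80, while Cldn1 fell by 1.64, Cldn3 by 1.59 and Cldn5, the claudin of vessels, from 11.92 and 11.79 to 9.70 and 9.73. Cdh1, the epithelial cadherin, did not pass (0.04).

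Cell cycle genes had not moved as a group. Of 28 DNA replication genes 2 rose and 3 fell, Mcm2 (0.41) and Mcm5 (0.40) did not pass, and Lig1 fell by 0.97. Of 21 mitosis genes Mad2l1 was the 1 that rose, while Bub1b (-1.28) and Cenpa (-1.09) fell, the latter not without the second 0 h array (-0.74) or the second 6 h array (-0.84). Both shares of calls lie below the 44.9% called over all genes. Of 23 cyclins, kinases and inhibitors 5 rose and 4 fell, with a median of -0.03. Cdk4, the kinase of the cyclins D, rose from 10.28 and 10.19 to 11.04 and 10.99, Cdc25a by 0.76 and Ccnd2 by 0.71, and Cdkn1a, an inhibitor, by 2.01. The inhibitors Cdkn2c (-0.91) and Cdkn1c (-0.71) fell, while Ccne1 (0.04) did not pass. In the p53 list, which shares Cdkn1a, 8 of 18 rose and 4 fell, with Gadd45a, a stress sensor, at 1.56.

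In the insulin-like growth factor pathway a ligand rose and both receptors fell. Igf1, the growth factor that the stroma makes in response to E2, went from 11.07 and 11.11 to 13.29 and 12.51 (1.80 ± 0.30, adjusted p = 1.70e-04). Its receptor gene Igf1r went from 12.46 and 12.25 to 10.20 and 10.81 (-1.85 ± 0.17), but other probes of Igf1r lay between -0.41 and 0.08, and those of Insr between -0.21 and 0.17. Insr, the insulin receptor gene, went from 12.60 and 12.67 to 10.93 and 11.66 (-1.34 ± 0.21). Of 17 genes of this pathway Igf1 was the only one that rose and 11 fell, including the binding protein Igfbp3 (-1.90), Igf2 (-1.36), its clearance receptor Igf2r (-1.29) and the adaptor Irs2 (-1.11). Of 24 hypoxia and angiogenesis genes 8 rose and 7 fell, with the placental growth factor Pgf at 1.05. In the EGF family 4 rose and 4 fell of 12, with the ligand Hbegf at 0.75 and Nrg4 at -1.10.

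Wnt pathway genes fell in 14 of 28 cases and rose in 6. The risers were mostly ligands: Wnt4 went from 8.73 and 8.59 to 9.62 and 10.38 (1.34 ± 0.20), Wnt7a rose by 1.06, Wnt5a by 0.83 and Wnt7b by 0.64. Axin2, a target and brake of the pathway, rose by 0.68. The fallers were modulators and receptors: Rspo3, which strengthens Wnt signals, went from 12.14 and 12.07 to 9.85 and 10.08 (-2.14 ± 0.12), the decoys Sfrp2 and Sfrp1 fell by 1.92 and 1.24, Dkk3 by 1.78, and the receptors Fzd7, Fzd2 and Fzd1 by 0.97, 0.86 and 0.68. In the BMP and activin group Inhba, the activin subunit, rose from 9.03 and 8.90 to 11.09 and 10.17, while Bmp4 (-0.77) and Id3 (-0.84) fell. In all 12 of 26 genes fell there and 5 rose, or 3 without the second 0 h array. Of 14 Notch genes 5 rose and 3 fell, with 3 rises without either 0 h array and 2 without the second 6 h array. The Notch targets Hey1 (0.70) and Heyl (0.65) rose, Hey1 not without the second 6 h array (0.27) or the first 0 h array (0.66). In the progesterone list 6 of 20 rose and 7 fell, but 2 fell without the first 0 h array and 3 without the second 6 h array, and Ihh, the epithelial hedgehog ligand, moved by 0.32, or 0.15 and not past the test without the first 6 h array.

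Of 33 collagen and matrix genes 8 rose and 14 fell, or 9 fell without the second 0 h array and 9 without the second 6 h array. Fbln2, a fibulin, went from 10.21 and 10.44 to 12.03 on both arrays (1.70 ± 0.12), P4ha2, which hydroxylates collagen, rose by 1.71 and Col6a2 by 1.41. Bgn, a small proteoglycan, went from 13.50 and 13.71 to 11.95 and 12.29 (-1.49 ± 0.15), and Lum fell by 1.16. Col1a1 (-0.31) and Col1a2 (-0.53) did not pass, and Col3a1 (-0.93) did not pass without the second 0 h array (-0.69) or either 6 h array. Of 23 hyaluronan and protease genes 8 rose and 8 fell. Adamts1 (1.54) and Adamts9 (1.68) rose with Adamts4, and so did the inhibitor Timp1 (1.06) and the hyaluronan synthase Has1 (0.85), while Mmp11 fell by 1.56, Timp2 by 1.08 and Mmp2 by 0.62. Aldh1a2, which makes retinoic acid, rose from 8.81 and 8.63 to 10.87 and 10.77, against 3 rises and 8 falls over 18 retinoid genes, or 5 falls without the first 0 h array.

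Of 31 chemokines and cytokines 8 rose and 5 fell, or 8 fell without the first 0 h array. Ccl7, which draws monocytes, went from 8.62 and 8.85 to 10.55 and 10.25 (1.66 ± 0.13), Cxcl16 rose by 1.08 and Lif, an implantation cytokine, by 0.79, while Il15 (-1.03) and Il33 (-0.82) fell. Il6 (-0.00) and Il1b (0.08) did not pass. Of 26 interferon-stimulated genes 6 fell and 3 rose, with Ifit3 at -1.61 and Rsad2 at -1.15, and 3 fell when the second 0 h array or the first 6 h array was left out. The rises were 1 without the first 0 h array or the first 6 h array. The granulocyte gene S100a8 read 8.35 and 11.61 at 0 h and 8.34 and 8.27 at 6 h: its change of -1.67 became -0.04 without the second 0 h array.

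Conjugation and antioxidant enzymes fell in 16 of 28 cases and rose in 5, with a median of -1.04 and 14 falls of at least 2-fold. Fmo1, a flavin monooxygenase, went from 12.39 and 12.48 to 9.56 and 10.21 (-2.55 ± 0.15, adjusted p = 4.68e-08), although other probes of it fell by 0.20 to 0.40. Sult1a1, a sulfotransferase, went from 11.91 and 12.12 to 8.97 and 10.56 (-2.25 ± 0.36). Several glutathione transferases fell, with Gstt3 at -1.94, Gsta3 at -1.71, Gstm1 at -1.60 and Gstt1 at -1.48. The oxidant-defence genes Srxn1 (1.30), Gpx1 (0.63), Gpx3 (0.62), Gclm (0.41) and Txnrd1 (0.23) rose instead, Gpx3 not without the second 6 h array (0.38). Imprinted growth genes fell in 6 of 14 cases and rose in none, with Dlk1 at -1.41, or -0.81 and not past the test without the first 6 h array.

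Adipocyte markers moved with these falls. All 10 tested markers fell, with a median of -2.18, and their mean relative to all 17 arrays was 1.49 and 1.57 at 0 h and -0.66 and 0.48 at 6 h, so the second 6 h array kept more of this signal. Lpl, the lipase of fat tissue, fell from 14.35 and 14.66 to 11.58 and 13.21, while another probe of it moved by -0.01. The median of the markers was -1.34 without the first 6 h array, with 7 falls, and -2.97 without the second, while the conjugation list gave 15 and 16 falls and medians of -0.84 and -1.17. Fibroblast markers fell in 10 of 13 cases (median -0.59), led by Pdgfra (-1.52, another probe -0.01), with means of 0.13 and 0.31 at 0 h and -0.37 and -0.52 at 6 h. Their part in the falls above was not tested.

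Macrophage markers lay at 0.13 and 1.04 at 0 h and at 0.28 and 0.13 at 6 h, and granulocyte markers at -0.04 and 0.86 against 0.04 and -0.05, so the second 0 h array stood apart. Of 13 macrophage markers 2 fell, 9 without the first 0 h array and 0 without the second, and of 10 granulocyte markers 1 fell, or 6 without the first 0 h array and 0 without the second. Lymphocyte (9 markers) and erythroid (3 markers) genes gave 0 calls, and mesothelial markers 1 rise and 4 falls of 8. Epithelial markers stayed level, between -0.08 and 0.01, and smooth muscle markers between -0.06 and 0.17, with the muscle actin Acta2 at 0.02, not past the test. Of 13 epithelial markers 4 rose and 4 fell (2 fell without the first 0 h array), and of 12 smooth muscle markers 4 rose and 3 fell (1 rose without the second 0 h array or the first 6 h array). Acta2, the stromal proteoglycan Dcn, the keratin Krt8 and Cdh1 all lay above the array median of 8.20 by more than 2 units, so markers of muscle, stroma and epithelium were present. Endothelial markers fell in 8 of 13 cases, or 5 without the second 0 h array. The ovary and oviduct markers had mean signals of 8.43 to 8.58, close to the array median. The part of the second 0 h array in other results was not tested beyond leaving it out.

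**Figure D4:**
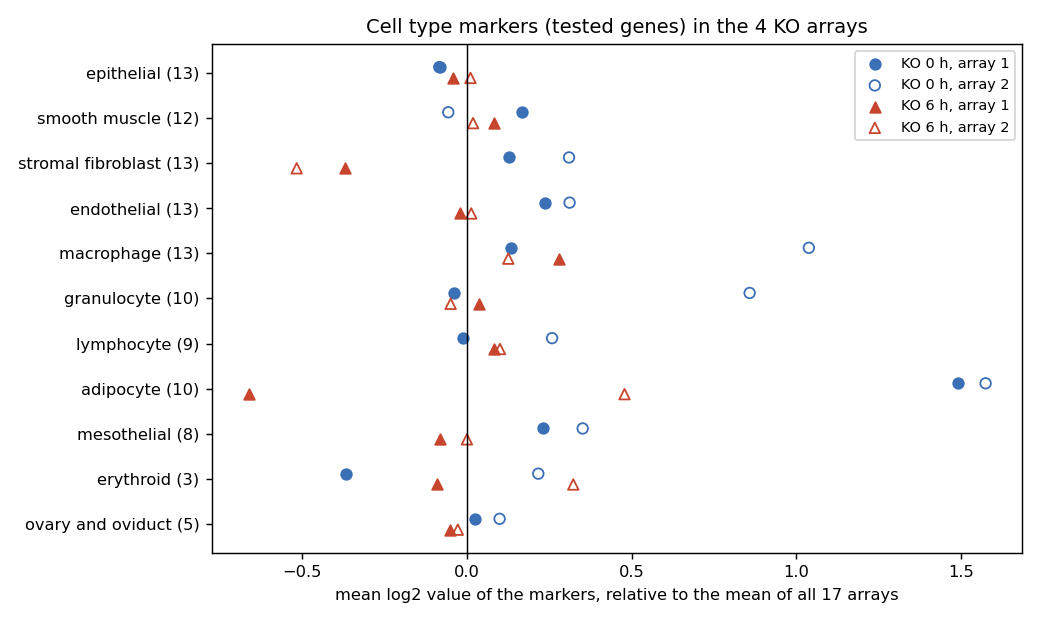
Mean log2 value of each cell type's tested markers (number in brackets) in the 4 KO arrays, relative to the mean of all 17 arrays; circles are 0 h, triangles 6 h, filled symbols the first array and open symbols the second. Adipocyte markers separate the times and split the 6 h arrays (-0.66 and 0.48), and the second 0 h array stands apart in macrophage (1.04) and granulocyte (0.86) markers.

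Whether the 6 h change differed from that of WT uteri was tested gene by gene as the KO change minus the WT change. It passed for 59 genes, 0.400% of all tested. In 29 the KO change was the higher one and in 30 the lower one, and 1632 had an unadjusted p under 0.05. Of the genes that changed at least 2-fold in KO, 7 that rose and 9 that fell were among them. The test takes in any difference at 0 h with its sign turned. KO lay below WT at 0 h in 28 of the 29 genes with a higher change, 20 of them past the test, and above WT in 30 of 30 with a lower change, 21 past the test, where 4.43% of all genes differed at 0 h. At 6 h KO and WT differed past the test in 7 of the 29 and 7 of the 30. These shares come from the same 0 h arrays as the difference and are a description only.

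Among the 8 highest differences, some genes rose further in KO than in WT. Slc7a11, the cystine importer, read 9.99 and 9.82 at 0 h and 11.17 and 11.71 at 6 h in KO, and 11.37 and 11.29 then 11.35 and 11.37 in WT (difference 1.50 ± 0.24, adjusted p = 1.76e-02). It began lower in KO and met the WT level at 6 h, while its other probes moved by 0.05 to 0.71 in KO. Phlda1, a growth factor-induced protein, rose from 10.62 and 10.67 to 12.16 and 12.66 in KO and from 11.19 and 11.02 to 11.51 and 11.74 in WT (1.24 ± 0.19). Wnt7a, the epithelial Wnt ligand, rose from 10.51 and 10.32 to 11.65 and 11.30 in KO and stayed at 10.78 and 11.07, then 10.95 and 10.86, in WT (1.08 ± 0.18). Srek1, a splicing regulator, went from 8.88 and 8.80 to 9.96 and 9.95 in KO and from 9.41 and 9.37 to 9.46 and 9.40 in WT (1.08 ± 0.10, adjusted p = 5.64e-04). Other probes of Srek1 moved by -0.06 to 0.27 in KO. At 6 h Phlda1 and Srek1 lay above WT past the test (0.78 and 0.53), and Wnt7a did not pass (0.57). Others fell in WT only after starting higher there: Cxcl14, a chemokine, read 11.31 and 11.24, then 9.91 and 9.88, in WT and between 9.38 and 9.70 in KO (1.22 ± 0.16). Slc40a1, the iron exporter (1.25), and Cemip, a hyaluronan-degrading protein (0.96), had the same form. Sox7, a vessel transcription factor (0.91), fell in WT (-0.59). Its rise of 0.32 in KO did not pass without either 0 h array (0.29 and 0.35), without the second 6 h array (0.13), in a fit of only the 4 KO arrays or under cyclic loess (0.25).

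The 8 lowest differences were led by Hpgds, at 8.60 and 9.05 and then 9.08 and 8.89 in WT, where KO fell to that level from 10.37 and 10.58 (-1.83 ± 0.18, adjusted p = 5.90e-04). Pde6h, a phosphodiesterase subunit (-1.33), and Hif3a, a hypoxia factor (-1.27), had the same form, with KO above WT at 0 h by 1.34 and 1.66. Hif3a has other probes at -0.03 and 0.04. At 6 h Cldn3 (-0.98) and Dclk3 (-1.07) lay below WT past the test, and Tfcp2l1 did not pass (-0.66). Cldn3 went from 12.03 and 11.91 to 10.23 and 10.52 in KO and from 11.50 and 11.76 to 11.46 and 11.26 in WT (-1.33 ± 0.23). Tfcp2l1, a grainyhead-like transcription factor, went from 13.71 and 13.63 to 11.61 and 11.86 in KO and from 12.67 and 13.15 to 12.41 and 12.37 in WT (-1.42 ± 0.21). Slc25a33, a mitochondrial nucleotide carrier (-1.33), fell in KO and rose in WT (0.64), and Dclk3, a kinase (-1.29), fell in KO and did not pass in WT (0.43). Spsb1, an adaptor of ubiquitin ligases (-1.19), rose in WT from 10.48 and 10.68 to 11.59 and 11.46 and did not change past the test in KO. These calls rest on few arrays: in a fit of only the 8 KO and WT arrays at 0 and 6 h 1 gene passed, Srek1. With the mean of all its probes the difference for Srek1 was 0.25 and did not pass. The counts higher and lower were 18 and 29 without the first KO 0 h array, 4 and 5 without the second, 70 and 77 without the first KO 6 h array and 31 and 51 without the second. Leaving out a WT array gave 25 and 13 for 0 h replicate 1, 265 and 232 for 0 h replicate 2, 4 and 5 for 6 h replicate 1 and 3 and 7 for 6 h replicate 2.

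**Figure D5:**
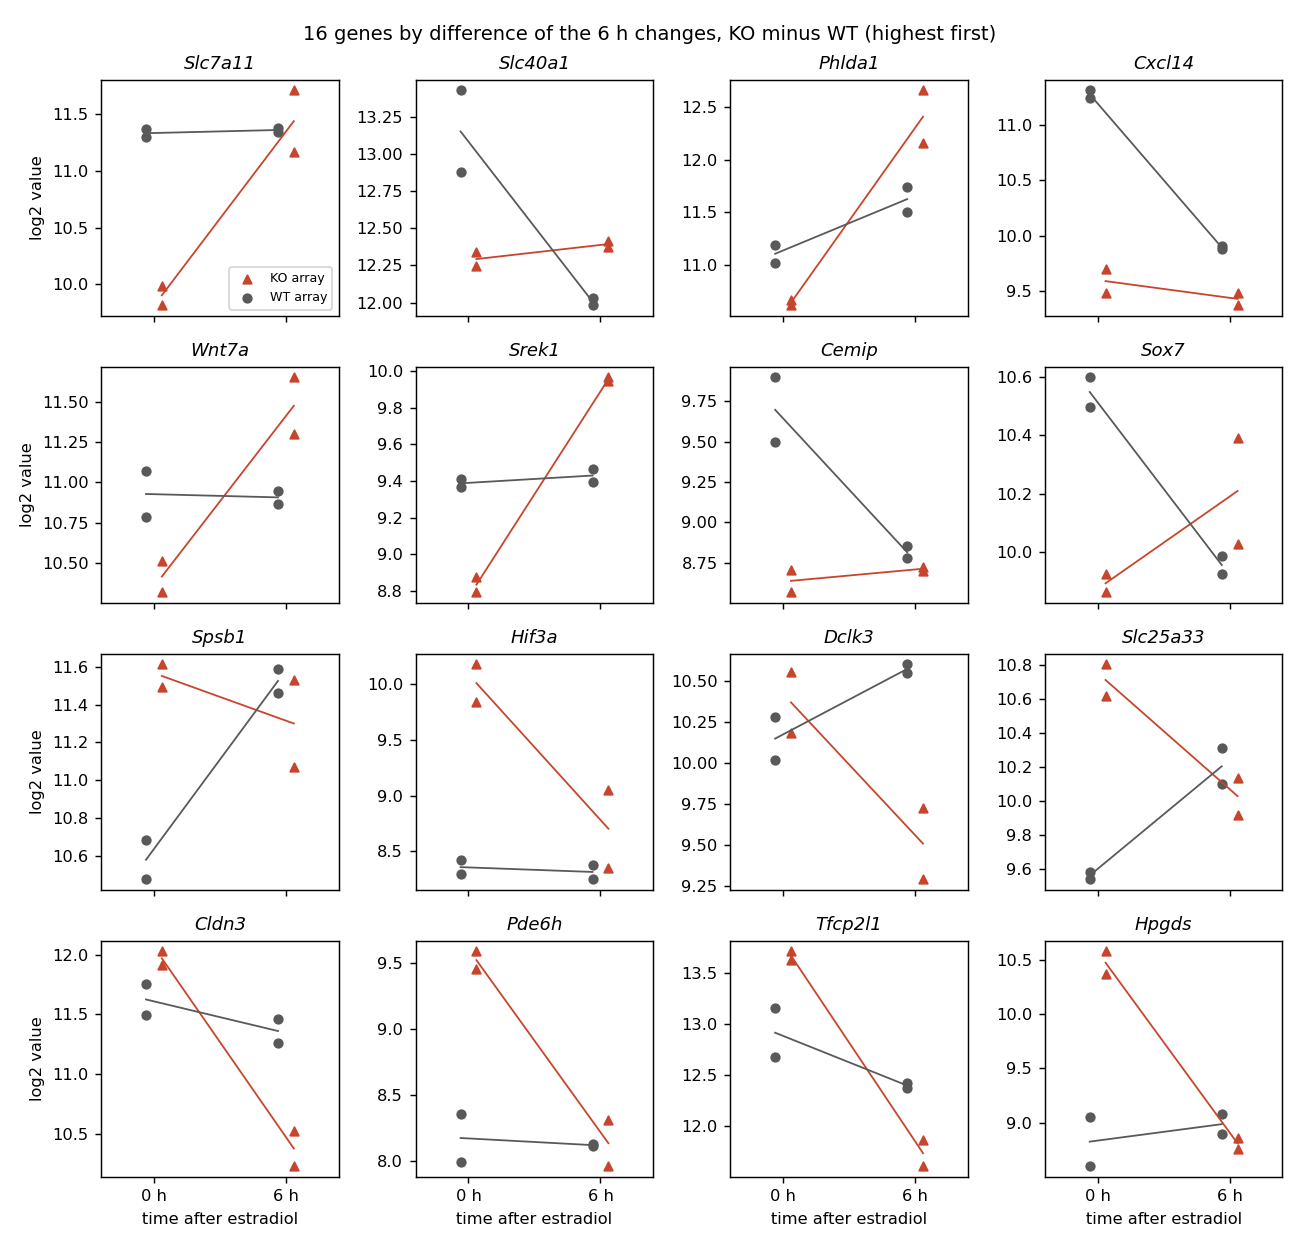
Deposited log2 values of the 16 genes named for the difference of changes, at 0 h and 6 h after estradiol; triangles are KO arrays, circles WT arrays, and lines join group means. Scales differ between panels. In most panels the genotypes are apart at 0 h and close at 6 h, as for Slc7a11, Cxcl14 and Hpgds, whereas Srek1, Phlda1, Cldn3 and Dclk3 end apart.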

How the data were processed

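Uterine RNA from 17 mouse arrays (8 groups of genotype and time) was measured on Illumina MouseWG-6 v2 bead arrays and read with BeadStudio, per the submitters' processing notes. The deposited log2 values had been quantile normalized between arrays by the authors, as read from the table: all 17 columns share their quantiles, with a median of 8.20 and a range of 7.39 to 15.94. No source used here names the background correction, and detection calls were not used. Only probes with 1 symbol in the platform annotation were used (34885 of 45281 probes, 18 with several symbols, 10378 unlisted; 34807 matched RefSeq by Entrez number). A probe had to lie above the array median on at least 2 arrays, and the brightest stood for its gene. A mean per group was fitted with limma 3.58.1 in R 4.3.3 (9 residual and 4.56 prior degrees of freedom, no intensity trend), two-sided, with the Benjamini-Hochberg adjustment over 14737 genes. The number of arrays limits the precision.

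The members and lists were chosen with earlier results of these data known. Named genes were the 15 largest rises and falls whose arrays did not overlap, the 8 highest and 8 lowest differences of changes, key members and the 4 largest changes of each of 44 pathway lists, and 2 members of each of 11 marker lists. Further list members are named to account for a count, after their values were seen. Of 1129 listed genes 980 were tested, 72 of them in more than 1 list. Alternatives were other filters, probe rules, scalings and samples in the fit, a replicate block, and leaving out each array. The fit was tested on simulated data.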

Additional observations from a re-analysis of the deposited data

Results flagged for a closer look

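The 6 h change differed between KO and WT, by the test of that difference, for 59 genes: the KO change was the higher one in 29 and the lower one in 30. The 8 highest were Slc7a11 (1.50), Slc40a1 (1.25), Phlda1 (1.24), Cxcl14 (1.22), Wnt7a (1.08), Srek1 (1.08), Cemip (0.96) and Sox7 (0.91). The 8 lowest were Hpgds (-1.83), Tfcp2l1 (-1.42), Pde6h (-1.33), Cldn3 (-1.33), Slc25a33 (-1.33), Dclk3 (-1.29), Hif3a (-1.27) and Spsb1 (-1.19). Hpgds, Pde6h, Slc25a33, Cxcl14 and Srek1 passed whichever array was left out, whereas each of the other 11 was lost without at least 1 array. With the mean of all probes of a gene Slc7a11 stood at 0.37, Srek1 at 0.25, Sox7 at 0.51 and Hif3a at -0.44, none past the test.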

How the results depend on the processing

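For KO 6 h against KO 0 h the counts stayed within 1.5 times of 3218 and 3395 under every alternative run (2680 to 3626 higher, 2922 to 3759 lower), and 5533 to 6491 of the 6613 calls were kept, 0 of them with the opposite sign except 4 with the mean of probes. The difference of changes did not hold as well: 1 gene was higher and 0 lower with only the KO and WT 0 h and 6 h arrays, where 1 of the 59 was kept, 10 were higher with the mean of probes, and leaving out 1 array gave 3 to 265 higher and 5 to 232 lower. The cause was not tested. Same-numbered replicates did not deviate together (correlations -0.0445 in KO and -0.0732 in WT). With a replicate block 3190 genes rose and 3355 fell, and the difference was called for 30 and 25. The KO 3 h arrays, lettered B and C in the labels, were numbered 1 and 2. A block by letter, chosen after seeing the data, gave 3198 and 3376, and 27 and 25. The sizes depended on the probe rule. With the mean of all probes of a gene 299 genes rose and 367 fell at least 2-fold, against 421 and 549 with the brightest probe. The median was then 0.66 rather than 1.11 for the ATF4 list and -0.71 rather than -1.11 for the growth-restraint list. For the p53 list it was 0.24 rather than 0.10. With 2 arrays a group, small changes and dim probes are the least certain.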
